A study of Mus musculus with 24 samples.

Results

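Late-onset mammary tumors of mice that were switched from a low-fat diet (LFD) to a high-fat diet (HFD) in adulthood were compared with late-onset tumors of mice kept on LFD throughout. The comparison used 9 of the 24 tumors in the series, chosen by their diet and onset label alone: 4 labelled LFD-HFD Late (MSU_24, MSU_42, MSU_45 and MSU_59a) and 5 labelled LFD Late (MSU_105, MSU_122a, MSU_137, MSU_28 and MSU_34). All came from female BALB/c mice without a transgene that had been given the carcinogen 7,12-dimethylbenz[a]anthracene (DMBA) during peripuberty. Both groups ate LFD through peripuberty and received the same carcinogen. By design the groups differ in the diet of adulthood, which in LFD-HFD was rich in saturated animal fat. They also differ in slide and in the histologies that the study lists, as given below. The comparison addresses what fat eaten only after puberty changes in the tumors that follow. The other tumors belonged to mice on HFD throughout (3 HFD Early and 6 HFD Late) or switched from HFD to LFD (3 HFD-LFD Early and 3 HFD-LFD Late). They enter the fits of 6 group means over 24 arrays, and their own levels are given where named. The histology of each tumor is not in the labels, and the labels do not say whether each tumor came from a different mouse, so the p-values measure the spread between these tumors. For the tumors used in PCR and arrays, the study lists cribriform, papillary, adenosquamous and glandular carcinomas under LFD. Under LFD-HFD it lists papillary and glandular ones only. That list gives no tumor numbers, so it cannot be matched to single arrays. MSU_59a shares its number with MSU_59b, which is labelled HFD-LFD Late.

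DMBA forms DNA adducts and induces mammary tumors of mixed histology in mice, from glandular and papillary carcinomas that express hormone receptors to squamous and spindle-cell tumors that do not. Dietary fat reaches a tumor as fatty acids, which are stored as triglyceride or burned in mitochondria after carnitine palmitoyltransferases carry them across the membrane. Cells that take up cholesterol lower their own sterol synthesis through the SREBP pathway and raise efflux through LXR. Diets rich in fat can also alter insulin, insulin-like growth factor (IGF) and leptin signaling, and the fat cells, macrophages and vessels around the epithelium.

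Each tumor was labelled with Cy5 and hybridized against a mouse reference RNA pooled from 11 cell lines in Cy3, according to the labels. All levels below are log2 ratios of tumor to reference, and all differences are LFD-HFD minus LFD on that log2 scale. The study's methods put the reference in Cy5, which would turn every sign given here. The labels' direction was kept: the median SD between arrays was 0.616 in Cy5 and 0.255 in Cy3, and the only Y chromosome probe kept had log2 ratios between -4.60 and -2.78 in these tumors of female mice. The scanner called between 66.1% and 76.2% of probes well above background in the tumor channel of the 9 arrays. Bands of rows were dimmed in Cy5 on slide 6 (28.3% of spots) and slide 7 (20.2% of spots), and were left out there. As a result 5784 of the 20958 genes tested have no value in LFD-HFD tumor MSU_24 and LFD tumor MSU_28, which shared slide 6, and 4107 have none in LFD-HFD tumors MSU_42 and MSU_59a, which shared slide 7. The other 4 LFD tumors shared slide 1, and MSU_45 lay on slide 4. By the scan dates in the file headers, slide 1 was read in session 1, slide 4 in session 2 and slides 6 and 7 in session 3. Slide 6 was the only slide with both groups, so for a gene without values on it, diet cannot be told apart from slide and session.

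The groups differed in how alike their tumors were. Across the 11067 genes measured on all 9 arrays, pairs of LFD-HFD tumors correlated between 0.924 and 0.95, and pairs of LFD tumors between 0.743 and 0.959. Pairs that held MSU_137 or MSU_28 correlated between 0.713 and 0.839. The median SD per gene was 0.337 in LFD and 0.204 in LFD-HFD, and the SD was larger in LFD for 8486 of the 11067 genes. The labelled tissue was checked on Foxa1, a pioneer factor of hormone-sensing luminal epithelium, whose level was between 3.53 and 4.69 in 7 tumors but -3.04 in MSU_137 and -1.35 in MSU_28. Prlr, the prolactin receptor, separated the same tumors, with 1.93 in MSU_137, 0.99 in MSU_28 and between 4.18 and 6.43 in the others. MSU_137 was also high for squamous genes: Krt1, a keratin of stratified epithelium, was at -1.41 there and between -6.53 and -5.90 in the other tumors measured. Skeletal muscle genes stood out in MSU_122a, where muscle creatine kinase (Ckm) was at -2.86, against -5.90 to -5.11 elsewhere. Fat cell genes stood out in MSU_45, where the lipid droplet protein perilipin 1 (Plin1) was at 0.22, against -5.49 to -2.16 elsewhere. In such bulk samples, fewer cells of a type and less RNA per cell cannot be told apart.

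Past an adjusted p of 0.05 in the limma fit of the 9 arrays, 6 genes were higher (0.0286% of genes tested) and 2 lower (0.00954%) in LFD-HFD tumors, 8 in all (0.0382%). At an unadjusted p under 0.05, 2090 genes were higher (9.97%) and 1512 lower (7.21%). Leaving out a single tumor gave between 0 and 261 called genes: 261 without MSU_28, and none without MSU_105, MSU_122a, MSU_34, MSU_42 or MSU_59a. Several of the 8 called features are probes for repeated or poorly named sequence rather than well-known genes, so the 60-base probes are shown for 3 of them, with the letters searched for in all other probes of the array in capitals.

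ENSMUST00000099042: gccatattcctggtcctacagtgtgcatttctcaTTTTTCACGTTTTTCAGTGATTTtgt
A_55_P2108486: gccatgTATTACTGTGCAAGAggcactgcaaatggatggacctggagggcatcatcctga
Gm14411: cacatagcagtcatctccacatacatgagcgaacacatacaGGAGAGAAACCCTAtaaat

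The probe of ENSMUST00000099042, a predicted gene, lies on mm9 chr9:3030720-3030779 and is listed for 4 transcripts. Its capitals are letters of the mouse major satellite, the repeat of pericentromeric heterochromatin, and no other probe among 39429 held them on either strand. The probe A_55_P2108486 has no gene name and no position in the files. Its capitals were found on either strand in 11 probes (0.0279%), among them an immunoglobulin heavy chain variable gene and a predicted mu-chain-like transcript, and A_55_P2108486 was the only tested probe of those. The probe of Gm14411, a predicted zinc finger gene on mm9 chr2:176910605-176910664, carries letters that recur between the fingers of such genes, and 13 probes (0.033%) held them, 11 of which were tested. Shared letters are a description of the probe, and such multigene families may be measured together.

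In LFD-HFD tumors MSU_42, MSU_45 and MSU_59a the ENSMUST00000099042 probe was at -4.09, -4.59 and -4.11. In LFD tumors MSU_105, MSU_122a, MSU_137 and MSU_34 it was at -6.92, -7.20, -7.51 and -7.24. Every LFD-HFD tumor measured was above every LFD tumor, by 2.96 on average (SE 0.203, adjusted p = 0.0126). MSU_24 and MSU_28 have no value for it. Taken from the tumor channel alone, with no reference, its difference was -1.64 (adjusted p = 0.164), so the direction rests on the ratio. The higher ratio therefore does not show that LFD-HFD tumors held more of this RNA.

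A_55_P2108486 was measured in all 9 tumors. It was at 0.74, 0.87, 0.82 and 1.09 in MSU_24, MSU_42, MSU_45 and MSU_59a. It was at -0.26, -0.0046, -0.10, -0.39 and -0.076 in MSU_105, MSU_122a, MSU_137, MSU_28 and MSU_34. The groups did not overlap, and the mean difference was 1.05 (SE 0.129, adjusted p = 0.0422). A fit of 24 arrays with the scan session as a term could test 2 of the 8. A_55_P2108486 passed there, with a difference of 1.36 (adjusted p = 0.0387). In the limma fit of the 9 arrays alone with that term, neither of the 2 passed (adjusted p from 0.112 to 0.191).

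Gm14411 was the other called gene measured on slide 6, with 1 of its 9 values imputed, in an LFD-HFD tumor. Its level was 1.53 in MSU_24, 1.68 in MSU_42, 1.97 in MSU_45 and 1.56 in MSU_59a. In MSU_105, MSU_122a, MSU_137, MSU_28 and MSU_34 it was 0.74, 0.064, 0.10, 0.19 and 0.47. The difference was 1.37 (SE 0.174, adjusted p = 0.0437), and the highest LFD tumor lay below the lowest LFD-HFD tumor. With the scan session as a term the difference was 1.35 (adjusted p = 0.0765). No other called gene had an imputed value. In the limma fit of the 9 arrays with no value imputed, 7 of the 8 stayed called, and the largest adjusted p was 0.0619.

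The other called genes were all measured without slide 6. Aldh18a1, which encodes the enzyme that makes pyrroline-5-carboxylate from glutamate on the way to proline, was at -1.07, -1.28 and -1.1 in MSU_42, MSU_45 and MSU_59a. In MSU_105, MSU_122a, MSU_137 and MSU_34 it was at 0.62, 0.63, 0.65 and 0.65, a spread smaller than for any other called gene. Its difference of -1.79 (SE 0.131, adjusted p = 0.0126) had the smallest p of the genes that were lower. Patz1, a zinc finger transcriptional regulator, was at -0.56, -0.59 and -0.41 in the LFD-HFD tumors and at 0.87, 0.77, 0.77 and 0.72 in the LFD tumors, in the same order. That gave a difference of -1.30 (adjusted p = 0.0422), while another Patz1 probe, measured in all 9 tumors, gave -0.106 (unadjusted p = 0.601).

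Csrnp3, a nuclear protein of the cysteine-serine-rich family, was at -0.53, -0.60 and -0.83 in the LFD-HFD tumors and at -2.66, -3.03, -2.53 and -2.28 in the LFD tumors. It was higher in LFD-HFD by 1.97 (adjusted p = 0.0422). The Riken transcripts 4931402H11Rik and 2900072G11Rik, neither of them with a described function in the files, were higher by 1.71 (adjusted p = 0.0295) and 1.46 (adjusted p = 0.0422). 4931402H11Rik lay between -0.44 and -0.22 in LFD-HFD and between -2.20 and -1.87 in LFD, so its groups were far apart relative to their spread.

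**Figure D1:**
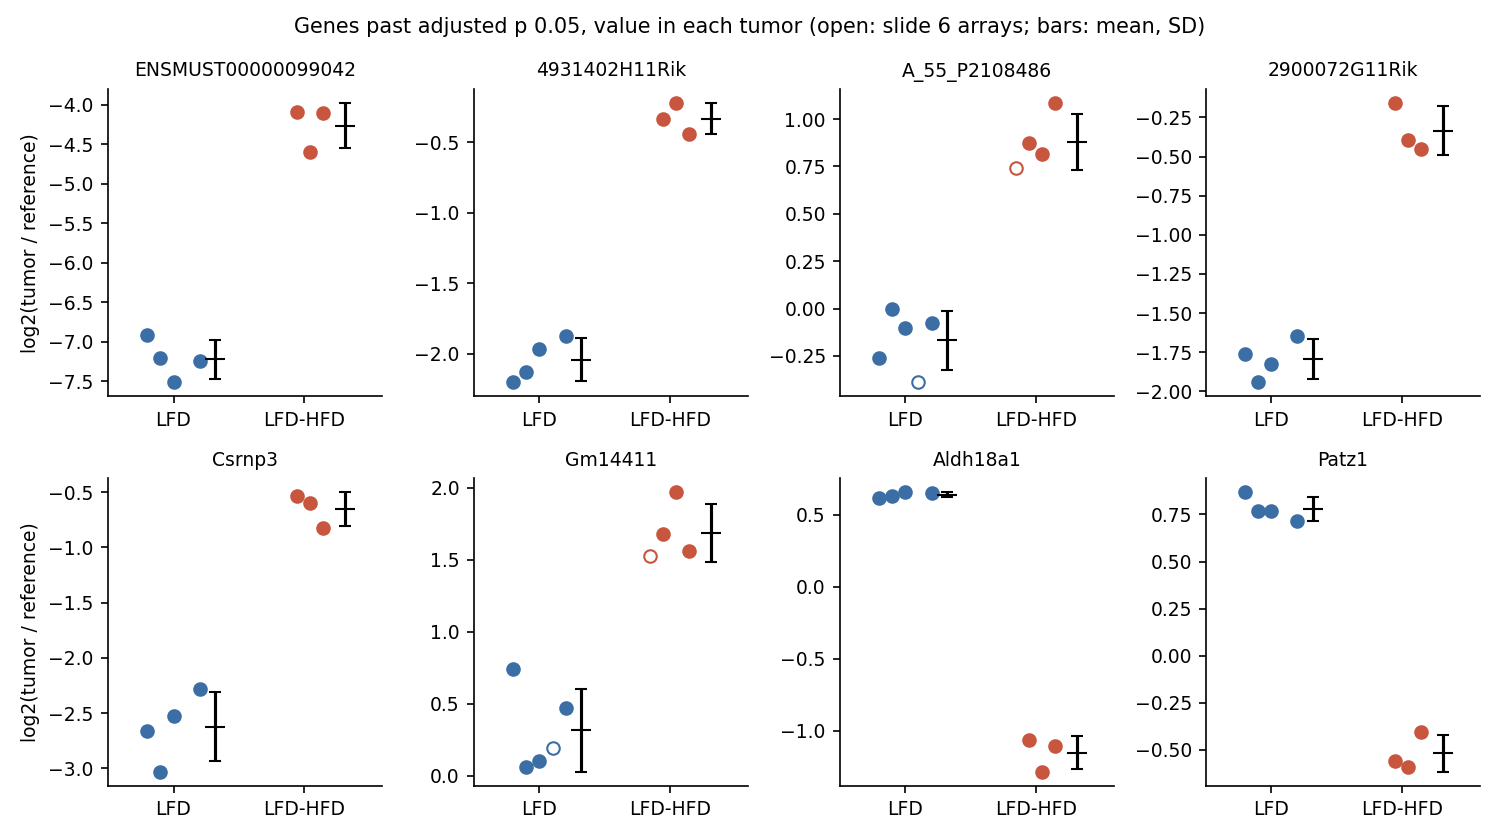
The log2 ratio of tumor to reference is plotted for each of the 8 called genes in each LFD (blue) and LFD-HFD (red) tumor, with open circles for the arrays of slide 6 and bars for the mean and SD. No LFD-HFD tumor overlaps an LFD tumor in any panel, and open circles appear only for A_55_P2108486 and Gm14411, the called genes with values on slide 6.

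The calls depended on where the genes lie on the array. Of the 8 genes, 6 were among the 5784 without slide 6, none among the 4107 without slide 7, and 2 among the 11067 with all 9 arrays. At an unadjusted p under 0.05 the share was 17.9%, 11.6% and 18.9% in these classes. Among the genes measured on all 9 arrays, the groups did not overlap with LFD-HFD higher for 577 (5.21%) and lower for 416 (3.76%).

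Ranking by p within each direction and taking the first 10 added 4 higher and 8 lower genes, which did not pass the adjusted threshold (adjusted p from 0.0593 to 0.0717) and included secreted and signaling proteins. Thrombospondin 1 (Thbs1), a matrix protein that restrains vessel growth, was at -1.58, -1.1, -1.58 and -1.69 in MSU_24, MSU_42, MSU_45 and MSU_59a. In the 5 LFD tumors it lay between -0.54 and -0.14, so the groups did not overlap at a difference of -1.12 (adjusted p = 0.0593). With the scan session as a term the difference was -0.53 (adjusted p = 0.524). Pde5a, the phosphodiesterase that breaks down cyclic GMP, differed by 1.73 and was measured without slide 6. Slc66a2 differed by 1.5, the expressed sequence TC1653050 by 0.89 and 9430091E24Rik by 0.90, and each had all 9 values and no overlap between groups. The lower ones were Slc26a1, a sulfate and oxalate transporter (-1.61), the kinase gene Stk24 (-1.01), the matrix protein gene Tinagl1 (-1.37), and the ubiquitin-conjugating enzyme gene Ube2d1 (-1.43). Atp11b (-1.43), Pa2g4 (-1.65) and the noncoding RNA Tug1 (-1.5) were also lower. Their other probes gave -0.273 for Atp11b, -0.697 for Pa2g4, and 0.163 and 0.794 for Tug1. Slc26a1, Stk24, Atp11b and Pa2g4 were, like Pde5a, measured without slide 6. Tinagl1 was measured without slide 7, in 2 LFD-HFD tumors.

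The pathways were described by 27 gene lists, as counts of members with an unadjusted p under 0.05, beside 9.97% of all genes higher and 7.21% lower. No member of any list passed the adjusted threshold.

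Genes of the cell cycle counted more members at lower level in LFD-HFD tumors than genes at large, and none passed the adjusted threshold. Of 33 tested, 13 had an unadjusted p under 0.05 and were lower (39.4%), none were higher, and the median difference was -0.542 against 0.0363 over all genes. The replication licensing factor gene Mcm2 was at -1.55 and -1.08 in MSU_24 and MSU_45, the LFD-HFD tumors in which it was measured, and between -0.35 and 0.31 in LFD, a difference of -1.20 (adjusted p = 0.113). Ube2c, which serves the anaphase-promoting complex, was at -2.08, -1.6, -1.56 and -2.06 in MSU_24, MSU_42, MSU_45 and MSU_59a. In MSU_105, MSU_122a, MSU_137, MSU_28 and MSU_34 it was at -1.27, -0.83, -0.049, -1.04 and -0.96, so all LFD tumors were above all LFD-HFD tumors (adjusted p = 0.141). The proliferation marker Mki67 was nearly the same in every LFD-HFD tumor, at -1.57, -1.56, -1.55 and -1.66, and it spread from -1.42 to -0.14 in LFD, where MSU_137 and MSU_28 (-0.33) were highest. Top2a, the topoisomerase of mitotic chromosomes, differed by -0.83 (adjusted p = 0.227) without overlap. Ccnb1, a mitotic cyclin, differed by -0.53 and its groups overlapped.

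The LFD tumors with the highest level of the cell cycle list were also those set apart above. The list's level, the median over its members relative to the mean of the 9 tumors, was 0.676 in MSU_28 and 0.560 in MSU_137, and between -0.177 and 0.096 in the other LFD tumors. In LFD-HFD it was between -0.411 and -0.135. Without MSU_137 and MSU_28, the median difference was -0.192 and 8 members were lower and 1 higher at an unadjusted p under 0.05, where all genes gave 9.82% and 11.7%. In the fit of 24 arrays with the scan session, the median was -1.12 and 23 of 29 members were lower, beside 5.67% of all genes. MSU_28, with the highest level of the list, was the only LFD tumor of session 3. On slide 6 itself, MSU_24 minus MSU_28 had a median of -1.13 over the list. Between HFD Late tumors of sessions 3 and 1, which share a diet, the list's median difference was 0.77.

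Hypoxia and glycolysis genes showed a similar count, with 9 of 23 lower, none higher, and a median of -0.735. Pgk1, a glycolytic kinase, was at -0.41 and -1.02 in MSU_24 and MSU_45, against 0.34, 0.69, 0.69, -0.30 and 0.75 in MSU_105, MSU_122a, MSU_137, MSU_28 and MSU_34. Only MSU_28 among the LFD tumors came near the LFD-HFD range, and the difference was -1.15 (adjusted p = 0.171). Pgam1, a phosphoglycerate mutase, differed by -0.85 (adjusted p = 0.156), with MSU_28 at -0.19 inside the LFD-HFD range of -0.74 to -0.19. The angiogenic factor gene Vegfa differed by -0.58, the pH regulator gene Car9 by -0.75 and the glucose transporter gene Slc2a1 by -0.19, all with overlap. With the scan session as a term, the list's median was -0.0941 over 15 members and none passed an unadjusted p of 0.05 in either direction. On slide 6 itself, MSU_24 was above MSU_28 by a median of 0.278. Without MSU_45 and MSU_122a, 2 of 17 members were lower (11.8%, beside 5.55% of all genes). Without MSU_137 and MSU_28, 11 of 23 were (47.8%, beside 9.82%), and in 24 arrays without the session 10 of 23 were (43.5%, beside 7.84%).

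Genes of the mitochondrial respiratory chain counted more members at higher level than genes at large, by small amounts. Of 30 tested, 10 were higher (33.3%), none were lower, and the median was 0.177. Cox5a, a subunit of cytochrome c oxidase, was at -1.21, -1.31, -1.14 and -0.99 in MSU_24, MSU_42, MSU_45 and MSU_59a and at -1.86, -1.56, -1.85, -1.67 and -1.68 in MSU_105, MSU_122a, MSU_137, MSU_28 and MSU_34. The groups did not overlap, at a difference of 0.56 (adjusted p = 0.113), and with the scan session the difference was 0.54 (adjusted p = 0.109). The complex I subunit genes Ndufa9, Ndufa4 and Ndufa1 differed by 0.73, 0.57 and 0.66, with adjusted p of 0.103, 0.171 and 0.207. Ndufa9 and Ndufa4 were measured without slide 6. Over the series, Ndufa9 was between -1.46 and -0.85 in 9 tumors of switched mice. It was between -2.23 and -1.57 in 11 tumors of mice on a continuous diet, among them HFD Late (-1.86 to -1.57). Ndufa4 overlapped between these. Without MSU_137 and MSU_28, 7 members were higher (23.3%, beside 11.7% of all genes) and none lower. Without MSU_45 and MSU_122a, 4 of 26 were higher (15.4%, beside 6.83%). With the scan session, 6 of 20 were higher (30%, beside 9.61%) and none lower, and the median was 0.222.

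**Figure D2:**
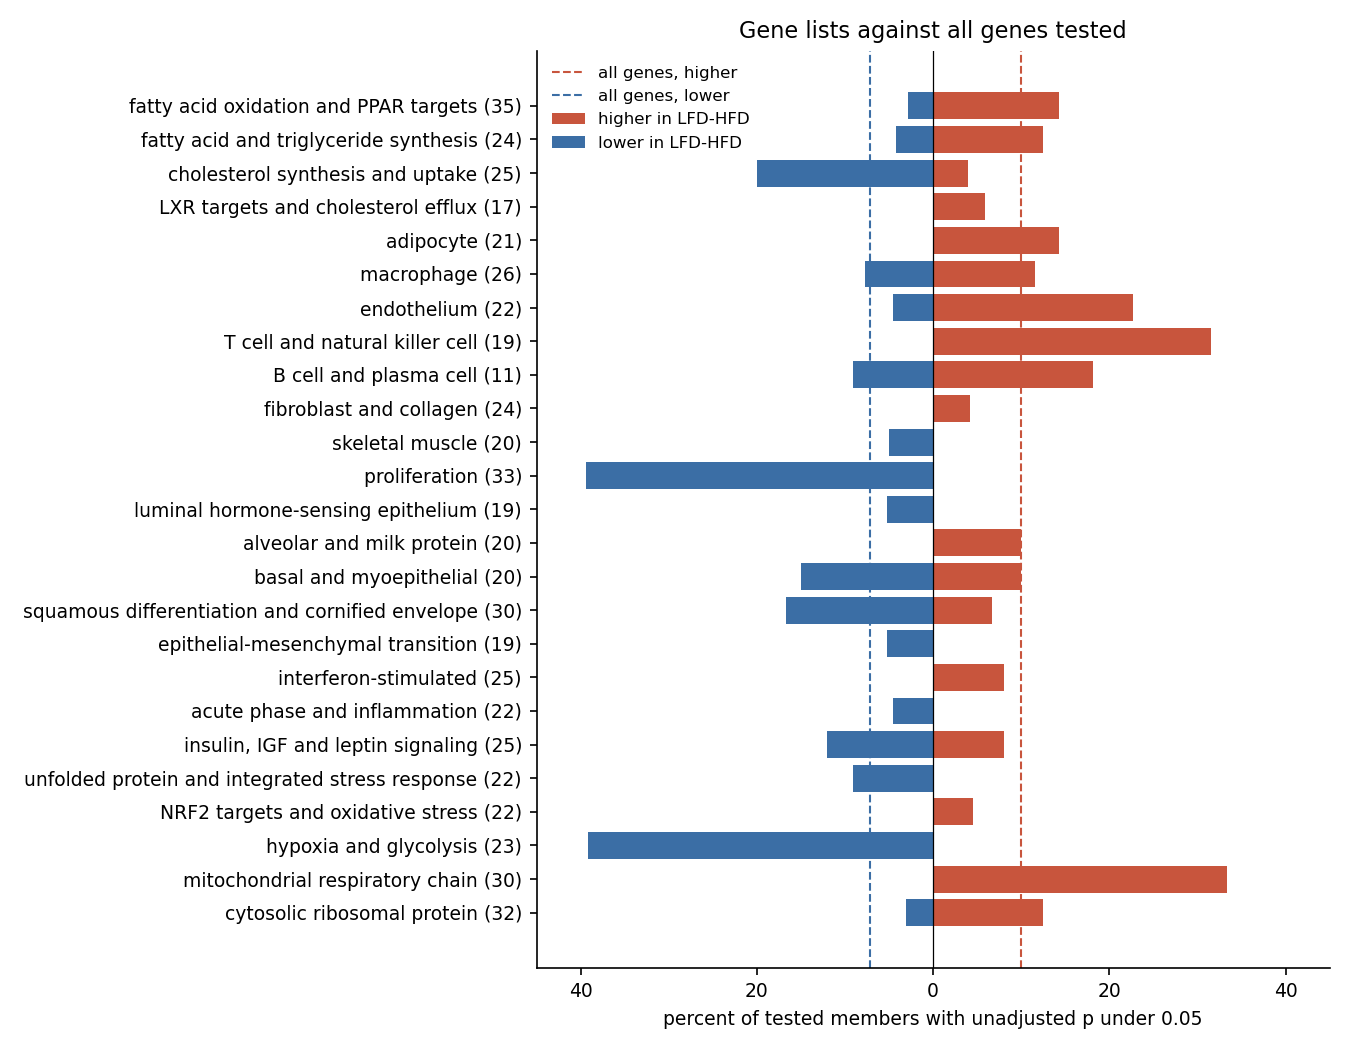
Bars give the percent of tested members of 25 gene lists (number in brackets) with an unadjusted p under 0.05, lower in LFD-HFD to the left and higher to the right, and dashed lines give 7.21% and 9.97% for all genes. Proliferation (39.4%) and hypoxia and glycolysis (39.1%) reach furthest to the left, and the respiratory chain (33.3%) furthest to the right.

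**Figure D3:**
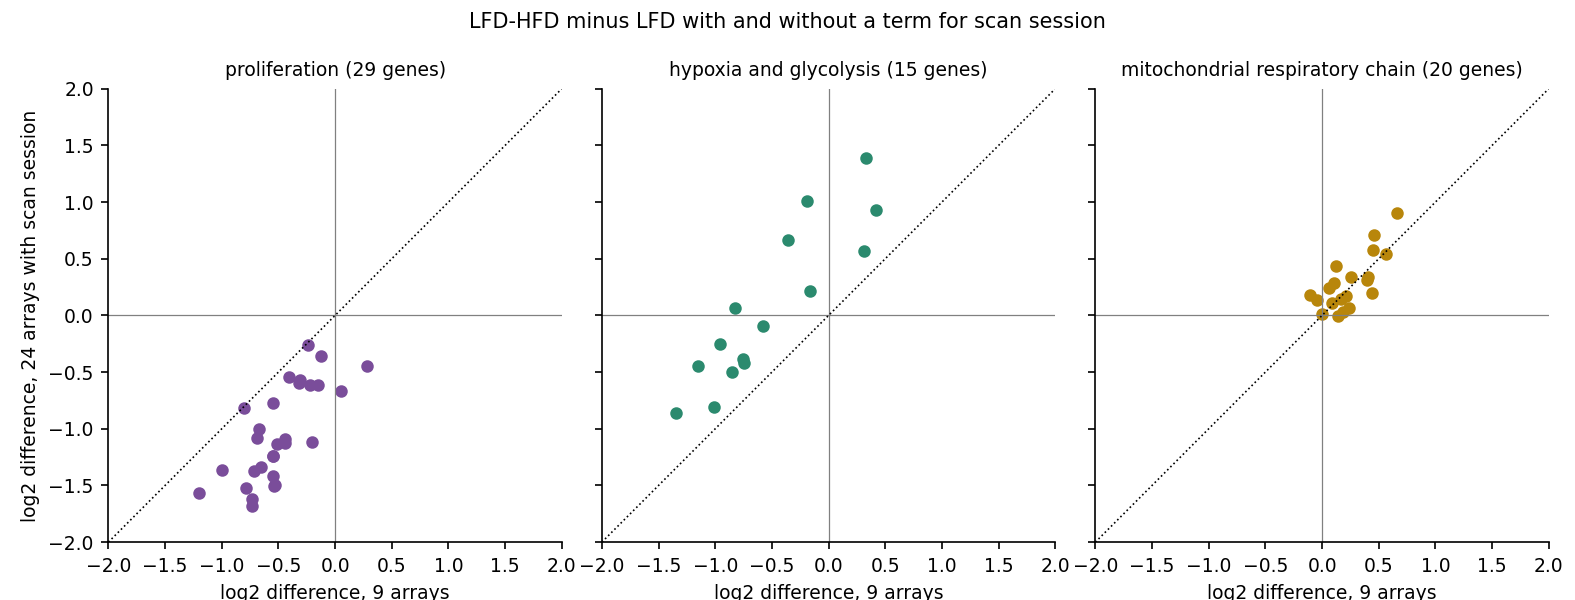
Each point is a member of the list, with its LFD-HFD minus LFD log2 difference in the 9 arrays on the x axis and in 24 arrays with scan session on the y axis, and the dotted line marks equal values. Proliferation members (median -1.12 with session) fall below the line, hypoxia and glycolysis members (median -0.0941) above it, and respiratory chain members (median 0.222) along it.

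Genes of fatty acid handling gave counts near those of all genes. Of 35 fatty acid oxidation genes and PPAR targets, 5 were higher and 1 lower, with a median of 0.118. Ppara, the nuclear receptor that drives hepatic fat oxidation, was at -2.93 in MSU_24 and -2.37 in MSU_45 and between -4.54 and -3.65 in LFD, a difference of 1.33 (adjusted p = 0.127). Cpt2, of the inner mitochondrial membrane, differed by 0.82 (adjusted p = 0.156), while Cpt1a, the regulated outer membrane step, differed by -0.22 (adjusted p = 0.556). Angptl4, a fasting-induced inhibitor of lipoprotein lipase, was at 1.42 in MSU_45 and between -0.14 and 0.64 in the other LFD-HFD tumors, and overlapped the LFD range of -1.32 to 0.50. Of 24 genes of fatty acid and triglyceride synthesis, 3 were higher and 1 lower. Mlxipl, the carbohydrate response factor, was at 1.07, 1.08, 1.1 and 0.94 in MSU_24, MSU_42, MSU_45 and MSU_59a and between 0.40 and 0.73 in LFD, without overlap (difference 0.49, adjusted p = 0.133). Elovl1, an elongase of very long chain fatty acids, differed by 0.50 (adjusted p = 0.172). The core enzymes Fasn (-0.57), Acaca (0.19) and Acly (-0.23) differed by no more than about 1 SE. In 24 arrays with the scan session, 5 of 24 oxidation genes were higher (20.8%, beside 9.61% of all genes), with a median of 0.408. Of 21 synthesis genes 3 were higher there (14.3%), with a median of 0.502, and none of either list was lower.

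Sterol genes counted more members lower than higher. Of 25 genes of cholesterol synthesis and uptake, 5 were lower (20%) and 1 higher, with a median of -0.128. Dhcr7, the last step before cholesterol, was between -1.69 and -1.03 in LFD-HFD, while LFD spread from -1.09 in MSU_28 to 1.22 in MSU_137 (difference -1.33, adjusted p = 0.172). Hmgcs1, the synthase early in the pathway, and the epoxidase gene Sqle differed by -0.086 and 0.047, each by less than 1 SE. With the scan session as a term, none of 18 members was lower (beside 5.67% of all genes) and 2 were higher (11.1%, beside 9.61%). The LXR targets counted 1 higher of 17, which was the efflux transporter gene Abcg1 (0.67, adjusted p = 0.271); Abca1 differed by 0.20.

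Fat cell genes had a high median, 0.906, and 3 of 21 members were higher. MSU_45 carried much of this. The list's level was 2.96 in MSU_45 and between -0.265 and 0.321 in the other LFD-HFD tumors, and MSU_137 was lowest at -1.92. Plin1 differed by 1.97 (adjusted p = 0.222), the adipokine gene Adipoq by 2.17 (adjusted p = 0.329), the adrenergic receptor gene Adrb3 by 1.91 (adjusted p = 0.233) and the adipogenic receptor gene Pparg by 0.72 (adjusted p = 0.471). Without MSU_45 and MSU_122a, 1 of 17 members was higher (5.88%, beside 6.83% of all genes). Without MSU_137 and MSU_28 none of 21 was (beside 11.7%). Over 24 arrays 9 of 21 were higher (42.9%, beside 11.5% of all genes), and with the scan session 5 of 17 (29.4%, beside 9.61%).

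Genes of insulin, IGF and leptin signaling counted 2 of 25 higher and 3 lower. Igf2r, the receptor that clears IGF2, was at -1.57, -1.74, -1.34 and -1.47 in MSU_24, MSU_42, MSU_45 and MSU_59a. It was at -0.87, -0.81, -0.98, -0.99 and -0.88 in MSU_105, MSU_122a, MSU_137, MSU_28 and MSU_34, a narrow range above every LFD-HFD tumor (difference -0.62, SE 0.120, adjusted p = 0.0966). The insulin receptor gene Insr was between -0.80 and -0.17 in LFD-HFD and between -0.12 and 0.29 in LFD, a difference of -0.62 (adjusted p = 0.151). Adipor1, an adiponectin receptor, differed by -0.73 (adjusted p = 0.109) without overlap. The growth factor gene Igf1 differed by 0.70 (adjusted p = 0.437) with overlap.

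The epithelial lists gave other medians when the 2 LFD tumors that stood apart were left out. For 19 luminal hormone-sensing genes the median difference was 0.774, with 1 lower and none higher, and without MSU_137 and MSU_28 it was -0.256. The estrogen receptor gene Esr1 was at 2.76, 1.20, 2.40 and 2.89 in MSU_24, MSU_42, MSU_45 and MSU_59a, and at 2.78, 1.72, 0.13, 0.92 and 2.14 in MSU_105, MSU_122a, MSU_137, MSU_28 and MSU_34. The 3 LFD tumors other than MSU_137 and MSU_28 lay inside the LFD-HFD range. For 30 squamous genes the median was -0.901, with 5 lower and 2 higher. Without the same tumors it was -0.288, with 7 lower (23.3%, beside 9.82% of all genes) and 3 higher (10%, beside 11.7%). Ivl, a cornified envelope protein, was at 0.35 in MSU_137 and between -3.18 and -1.82 in the other tumors measured. Dsc2, a desmosomal cadherin, was lower in LFD-HFD without overlap (-1.11, adjusted p = 0.128), and Serpinb5 was higher without overlap (0.67, adjusted p = 0.130).

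Of 20 milk protein and alveolar genes, 2 were higher with all tumors and 8 (40.0%) without MSU_137 and MSU_28, where 11.7% of all genes were higher. Csn2, beta-casein, was at 7.99, 7.52 and 3.43 in MSU_42, MSU_45 and MSU_59a and at 4.38, -0.29, 8.84 and 2.37 in MSU_105, MSU_122a, MSU_137 and MSU_34, so its spread within a group exceeded the difference (2 of its values were imputed). Wap, whey acidic protein, had the same pattern, from -1.35 to 4.58 in LFD-HFD and from -1.43 to 4.31 in LFD. Mfge8, a milk fat globule protein, was higher without overlap (1.35, adjusted p = 0.172), as was Btn1a1, butyrophilin (0.53, adjusted p = 0.164). Of 20 basal genes 2 were higher and 3 lower. Without MSU_137 and MSU_28, 3 were higher (15%, beside 11.7% of all genes) and 6 lower (30%, beside 9.82%). The median turned from 0.417 to -0.17. Trp63 differed by 0.59 (adjusted p = 0.220), Krt14 by -0.85 (adjusted p = 0.197) and Krt5 by -0.32 (adjusted p = 0.782). Of 19 epithelial-mesenchymal transition genes 1 was lower, the adherens junction gene Cdh1 (-0.86, adjusted p = 0.167), which was at 0.60 in MSU_28 and between 1.54 and 1.85 in the other LFD tumors.

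**Figure D4:**
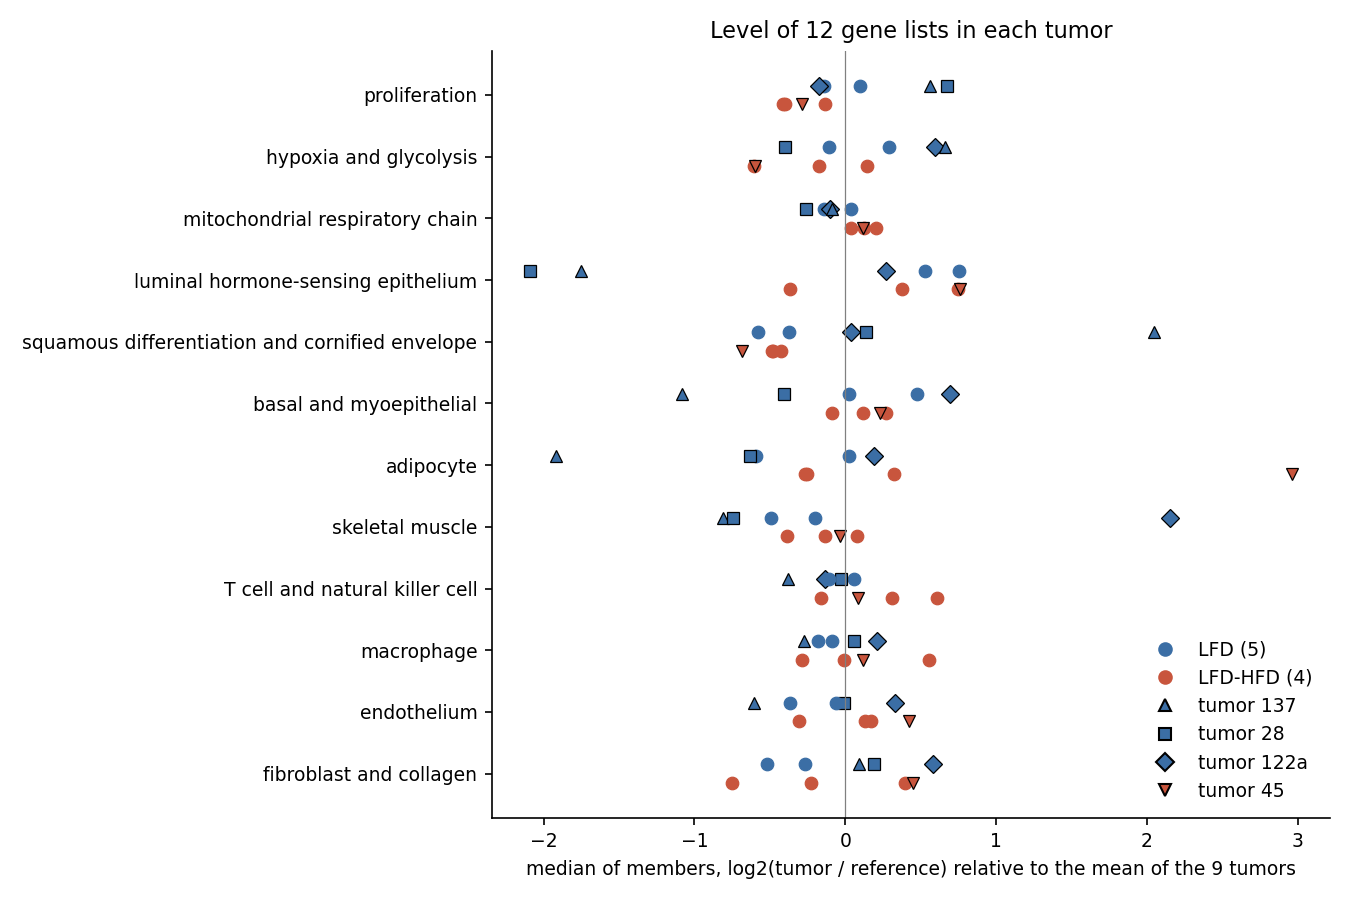
The level of 12 gene lists in each LFD (blue) and LFD-HFD (red) tumor is the median over members of the log2 ratio relative to the mean of the 9 tumors, with marked symbols for MSU_137, MSU_28, MSU_122a and MSU_45. MSU_137 and MSU_28 lie apart on the luminal list (-1.75 and -2.09), MSU_137 on the squamous list (2.05), MSU_122a on the skeletal muscle list (2.15) and MSU_45 on the adipocyte list (2.96).

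Immune genes were compared next. Of 19 T cell and natural killer cell genes, 6 were higher (31.6%) and none lower, with a median of 0.246. Cd2, a T cell adhesion receptor, was at 0.74, 1.09, 0.48 and 0.26 in MSU_24, MSU_42, MSU_45 and MSU_59a and between -0.076 and 0.31 in LFD, where MSU_28 overlapped MSU_59a (difference 0.56, adjusted p = 0.176). Cd3e, of the T cell receptor complex, differed by 0.63 (adjusted p = 0.260) and Nkg7, of cytotoxic granules, by 0.90 (adjusted p = 0.197). Without MSU_137 and MSU_28, 4 were higher (21.1%, beside 11.7% of all genes). With the scan session none of 11 was (beside 9.61%). Of 26 macrophage genes 3 were higher and 2 lower. Clec10a, a lectin of alternatively activated macrophages and dendritic cells, was at 3.21, 2.73 and 1.91 in MSU_42, MSU_45 and MSU_59a and at 1.25, 0.98, 0.24 and 0.77 in MSU_105, MSU_122a, MSU_137 and MSU_34, without overlap (1.81, adjusted p = 0.113). Retnla, made by the same kind of macrophage and by fat cells, was at 0.056 in MSU_24 and 1.21 in MSU_45 and between -2.62 and -0.42 in LFD (1.84, adjusted p = 0.202). Of 25 interferon-stimulated genes 2 were higher. Cxcl9, a chemokine for activated T cells, was between 2.24 and 3.00 in LFD-HFD and between 1.24 and 2.00 in LFD (0.89, adjusted p = 0.117). The RNA sensor gene Ifih1 differed by 0.80 (adjusted p = 0.191). With the scan session 5 of 19 interferon-stimulated genes were higher (26.3%, beside 9.61% of all genes) and none lower, with a median of 0.945.

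Of 22 endothelial genes 5 were higher and 1 lower. Flt1, a VEGF receptor, differed by 0.54 (adjusted p = 0.222) and Tek, the angiopoietin receptor, by -0.58 (adjusted p = 0.211), and both overlapped. Without MSU_137 and MSU_28, 1 was higher (4.55%, beside 11.7% of all genes) and 3 lower (13.6%, beside 9.82%). With the scan session 5 of 16 were higher (31.2%, beside 9.61% of all genes) and none lower, with a median of 0.577. Of 24 fibroblast and collagen genes 1 was higher, the proteoglycan gene Lum (1.6, adjusted p = 0.247). Of 20 muscle genes 1 was lower, with a median of -0.197. Without MSU_45 and MSU_122a that median turned to 0.416, and 6 of 18 were higher (33.3%, beside 6.83% of all genes) and none lower. Of 11 B cell and plasma cell genes 2 were higher and 1 lower. With all 9 tumors, stress and translation lists gave 1 of 22 acute phase genes lower, 2 of 22 genes of the unfolded protein response lower, 1 of 22 NRF2 targets higher, and 4 of 32 cytosolic ribosomal protein genes higher with 1 lower. Without MSU_137 and MSU_28, 10 of 32 ribosomal protein genes were higher (31.2%, beside 11.7% of all genes) and 6 of 22 of the unfolded protein response lower (27.3%, beside 9.82%).

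The study followed a set of genes by PCR in mammary glands before tumor development and another set in tumors. In those glands, another tissue and time, it found Tgfa, Tgfb1 and the Ccl genes higher in LFD-HFD than in LFD mice. Its PCR of tumors set HFD against LFD and HFD-LFD against LFD-HFD, not LFD-HFD against LFD. Of the 11 study genes with a tested probe (Ccl20, Ccl22 and Bmp10 had none), 3 had an unadjusted p under 0.05, and all 3 were lower. Tgfa, a ligand of the EGF receptor, was at -0.21, -0.42, -0.32 and -0.028 in MSU_24, MSU_42, MSU_45 and MSU_59a. It was at 0.089, 0.75, 1.32, 1.22 and 0.11 in MSU_105, MSU_122a, MSU_137, MSU_28 and MSU_34, above every LFD-HFD tumor (difference -0.94, adjusted p = 0.168). Ctnnb1, beta-catenin, differed by -0.54 (adjusted p = 0.235) and Brca1 by -0.42 (adjusted p = 0.226). The Brca1 probe was well above background in 4 of the 9 tumor channels and had 3 imputed values. That of Ntf3 was well above background in the tumor channel of 2 of 5 LFD and 3 of 4 LFD-HFD tumors. Trp53 differed by -0.95 (adjusted p = 0.297), Tgfb1 by -0.53, Ccl17 by 0.49, Ccnd2 by -0.50, Ntf3 by -0.45, Bmp7 by -0.32, Ccl1 by -0.11 and Apaf1 by 0.033, and all of these overlapped between groups.

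Scan session changed which genes were called. When all 24 arrays were fitted as 6 group means, 250 genes were higher in LFD-HFD (1.19%) and 191 lower (0.911%), among them all 8 called with 9 arrays. With a term for the session, which needs slide 6 and so covers 15174 genes, 3 were higher (0.0198%) and 2 lower (0.0132%). Session 3 held 1 LFD tumor, MSU_28, and 2 HFD Late tumors, and only these link it to session 1 in that fit. Of 261 genes called in 24 arrays and measured on slide 6, 2 remained called. Beside A_55_P2108486 these 5 were the transcript 1700048M11Rik, Pex5l, Nuf2 and Ncapg, named here after their values were seen. Nuf2, a kinetochore protein, was at -0.58, -0.53, -0.74 and -0.73 in MSU_24, MSU_42, MSU_45 and MSU_59a and at -0.38, 0.14, 0.48, 0.44 and 0.067 in MSU_105, MSU_122a, MSU_137, MSU_28 and MSU_34. Its groups did not overlap, and its difference was -0.80 in 9 arrays (adjusted p = 0.128) and -1.38 with the session (adjusted p = 0.0357). Ncapg, a condensin subunit of mitotic chromosomes, differed by -0.35 in 9 arrays and -0.87 with the session (adjusted p = 0.0387), and was highest in MSU_28 at 0.94. 1700048M11Rik differed by 1.26 (adjusted p = 0.0357) and Pex5l, a relative of the peroxisomal import receptor, by 1.70 (adjusted p = 0.0304) with the session. The Pex5l probe was well above background in 1 of 5 LFD tumors and in all 4 LFD-HFD tumors. In the reference channel it was so on 2 of 5 LFD and 3 of 4 LFD-HFD arrays. The Ncapg probe was well above background in the reference channel on 4 of 5 LFD arrays and 1 of 4 LFD-HFD arrays.

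Whether the adult switch did the same after either pubertal diet was examined by setting LFD-HFD minus LFD against HFD minus HFD-LFD among late tumors, each being HFD against LFD in adulthood. The difference of these changes passed the adjusted threshold for 1746 genes (8.33%) over 24 arrays and for 8 of 15174 (0.0527%) with the scan session. That contrast is, by arithmetic, the late tumors of switched mice against those of mice on a continuous diet. Session 1 held only continuous diets (11 tumors), session 2 only switched diets (6 tumors), and session 3 held both (3 continuous and 4 switched), so outside session 3 the switch and the session cannot be told apart.

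Several called genes separated the tumors of switched mice from those of mice on a continuous diet, low or high in fat. Gm14411 lay between 1.25 and 1.97 in the 10 tumors of switched mice and between -0.090 and 1.13 in the 14 of mice on a continuous diet. Its level in HFD-LFD Late, where the adult diet was low in fat, was between 1.40 and 1.72, inside the range of LFD-HFD apart from its lowest tumor. Within session 3, it was between 1.53 and 1.72 in 4 switched tumors and between 0.016 and 1.13 in 3 continuous ones. ENSMUST00000099042 was between -4.59 and -1.04 in 9 switched tumors and between -8.49 and -4.91 in 11 continuous ones, with no continuous tumor of session 3 measured. Aldh18a1 was between -2.02 and -1.07 in switched and between -0.73 and 0.65 in continuous tumors, again with no continuous tumor of session 3 measured. These were 3 of the 8 called genes. Pde5a and Slc26a1, among the 12 named after them and also without a continuous tumor of session 3, had no overlap either. Over all genes tested, 85 (0.406%) had none, and over those without slide 6, 60 of 5784 (1.04%). The genes were chosen on LFD-HFD against LFD, which is part of this contrast, so nothing is read from their count. A_55_P2108486 overlapped between the switched (0.086 to 1.33) and the continuous tumors (-0.39 to 0.62), and did not overlap within session 3.

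**Figure D5:**
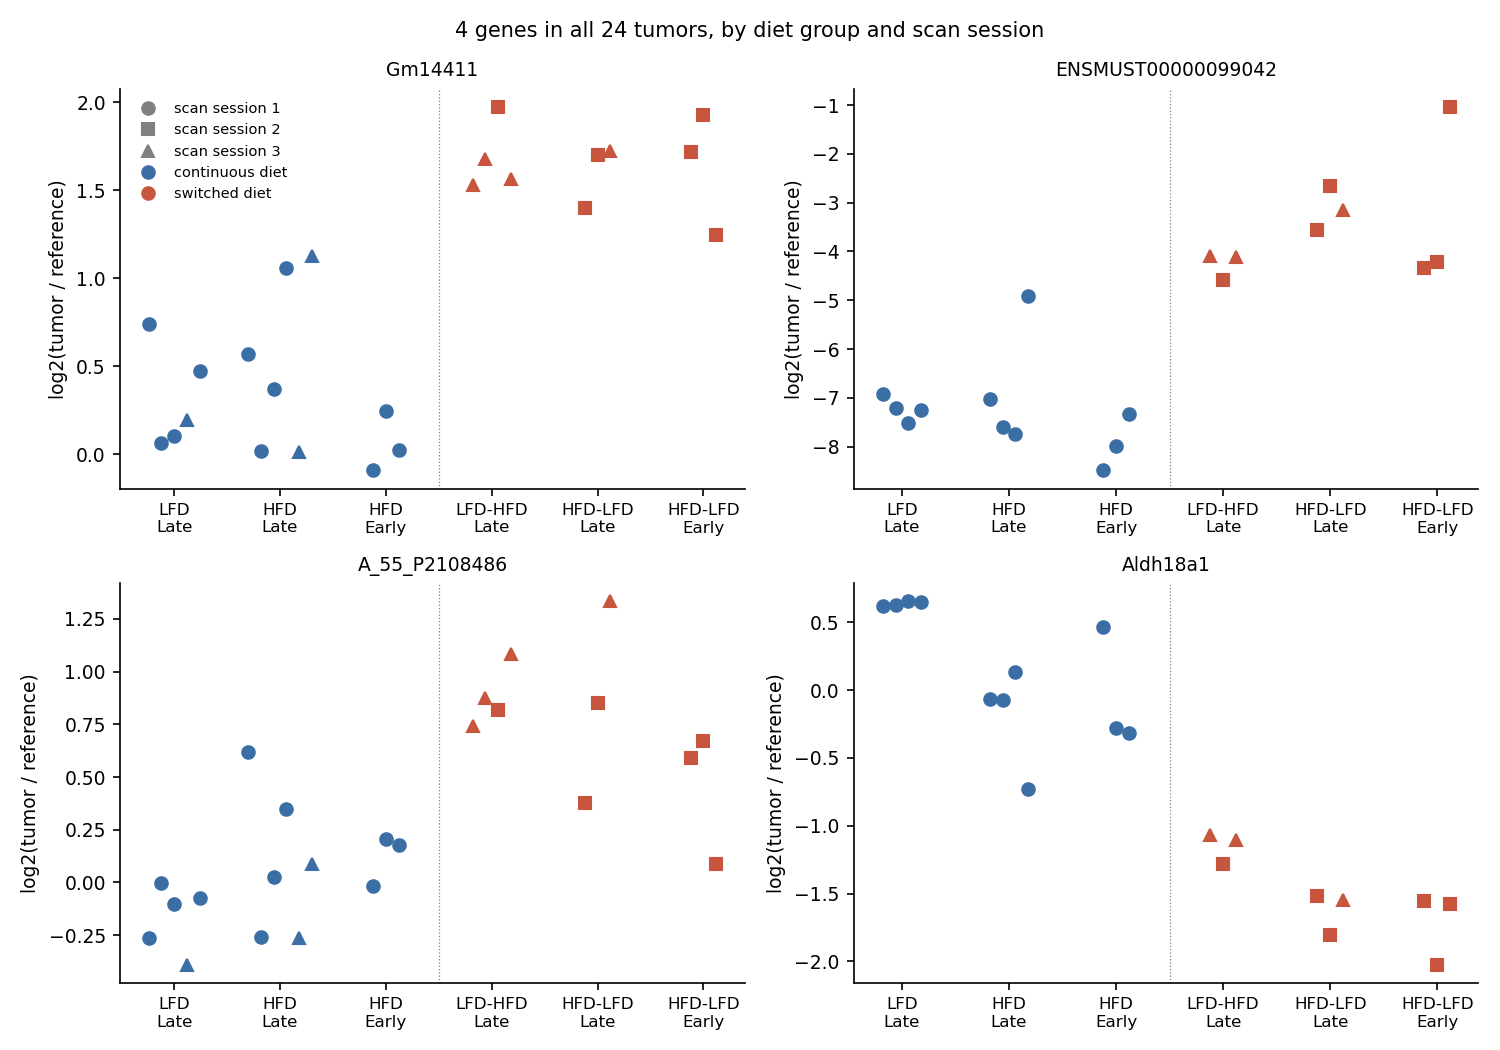
The log2 ratio of tumor to reference of 4 called genes is plotted in all 24 tumors by diet group, blue for a continuous and red for a switched diet, with the symbol for the scan session. Gm14411, ENSMUST00000099042 and Aldh18a1 separate switched from continuous tumors without overlap, and A_55_P2108486 overlaps. For ENSMUST00000099042 and Aldh18a1 no continuous tumor of session 3 has a value.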

How the data were processed

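Total RNA of each tumor was hybridized on an Agilent 4 x 44K mouse array together with a common reference RNA. The authors deposited scanner output: per spot and dye, the mean intensity, the median intensity of the local background and their difference, not corrected for dye. The deposited log10 values are ratios of Cy5 to Cy3 after the scanner software's own background and dye correction. The file headers name Agilent Feature Extraction 11.0.1.1 and probe positions on mm9, and the submitters' processing notes name version 8.5.1.1. None of the later steps in the study's methods is in these files. Groups follow the labels, and replicate numbers follow accession order.

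R 4.3.3 and limma 3.58.1 were used (statmod 1.5.0 for the slide block). Background was corrected by normexp (offset 50, fitted without spots flagged as outliers) and each array's ratios by loess (span 0.3, 4 iterations). Dimmed rows got no weight and stayed missing, and replicate spots were averaged per probe. A probe was kept if both channels exceeded their background by over 10 on 80% of arrays or more, which 27305 of 39429 did. Values of low signal were imputed from the 10 nearest probes (1.4% of values of the 9 arrays, against 10.5% missing for dimmed rows). RefSeq gave names by accession (27234 probes), symbol (3576) or older symbol (565), and 8054 probes kept the file's name. The brightest probe represented its gene. Differences were tested with limma (lmFit and eBayes), with p adjusted by Benjamini-Hochberg over the 20958 genes tested. The number of arrays limits the precision. Steps were tested on simulated data. Named genes are the 10 with the smallest p in each direction, the first 3 tested members of each list with its 2 of smallest p, and the genes the study followed. From the list members so named, the text gives those it describes. Some genes are not reported here. The comparison, lists and tests were chosen with earlier results of these data known. Alternatives covered the dimmed rows, imputation, background, normalization, filters, probe choice, array weights, session, slide and each tumor left out.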

Additional observations from a re-analysis of the deposited data

Results flagged for a closer look

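A tumor that lay far from the rest of its own group, by Dixon's criterion, was found for 5 of 54 list levels and 11 of 158 gene and group values looked at, and chance alone gives about 1 in 20. Among LFD tumors, MSU_122a stood apart on the skeletal muscle list (2.15) and on Ckm (log2 ratio -2.86). MSU_137 stood apart on the squamous list (2.05), the epithelial-mesenchymal list (0.425), Acly (1.75), Krt1 (-1.41), Ivl (0.353) and Cd3e (-1.05). MSU_28 stood apart on the list of genes the study followed in tumors (1.45), on Ncapg (0.936) and on Cdh1 (0.597). Among LFD-HFD tumors, MSU_45 stood apart on the fatty acid oxidation list (0.345), Cpt1a (-0.0519) and Pparg (-0.298), MSU_42 on Pgam1 (-0.741) and MSU_24 on Flt1 (-0.543).

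The change with HFD in adulthood differed between the pubertal diets for 1746 genes in limma over 24 arrays, and for 8 with scan session as a term. The log2 difference between the changes was above 0 for ENSMUST00000099042 (6.67), Csrnp3 (3.33), Pde5a (3.25), 4931402H11Rik (2.79), Gm14411 (2.45), Slc66a2 (2.33), Ppara (2.21), 2900072G11Rik (2.2), A_55_P2108486 (1.81), Ccl17 (1.78), 9430091E24Rik (1.66) and TC1653050 (1.55). It was also above 0 for Ndufa9 (1.44), Nkg7 (1.04), Btn1a1 (0.924), Mlxipl (0.665) and Cox5a (0.525). It was below 0 for Aldh18a1 (-3.23), Slc26a1 (-3.22), Tug1 (-2.94), Ube2d1 (-2.49), Pa2g4 (-2.44), Atp11b (-2.13), Mcm2 (-1.83), Patz1 (-1.74), Dhcr7 (-1.74), Insr (-1.69) and Tek (-1.55). It was also below 0 for Stk24 (-1.36), Igf2r (-1.21), Adipor1 (-1.16), Cdh1 (-1.13), Nuf2 (-1.07) and Brca1 (-0.705). These tests take no account of scan session, which cannot be told apart from switching the diet outside session 3.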

How the results depend on the processing

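The 8 called genes were counted again under other settings of the limma fit. The count was 0 with the dimmed rows kept as measured (smallest adjusted p 0.162) or imputed (0.0583), with the tumor channel alone (0.0617), without the arrays of slides 6 and 7 (0.324), over genes measured on slide 6 alone (0.0899), and without MSU_45 and MSU_122a (0.333). It was 1 with median centring, 5 of 15174 with session as a term over 24 arrays, 15 with the scanner's log ratio, 18 with a variance trend, 27 of 15174 with session as a term over 9 arrays, 47 with slide as a random block (correlation 0.115), 133 without MSU_137 and MSU_28, 315 of 11067 in session 3 alone, 441 with 24 arrays and 551 with array weights, and 3602 had an unadjusted p under 0.05. Leaving out each tumor gave 0 to 261 calls, the highest without MSU_28. No setting reversed a called gene except the tumor channel alone, which put ENSMUST00000099042 at -1.64. Of 224 values of these genes, 104 kept their call and 119 lost it in the same direction. None of the 8 was among the 27 called with session as a term over 9 arrays, where 2 of them had a value. Of 837 list medians, 63 moved by more than the spread between tumors. The settings that left out pairs of tumors, kept genes of slide 6 alone or kept low signal (7 calls) were chosen after seeing the data.

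The 1746 genes whose adult-diet change differed between pubertal diets were 8 of 15174 with session as a term, 736 with slide as a random block, 4082 with array weights and 5147 at an unadjusted p under 0.05. Leaving out each of the 9 tumors gave 1044 (without MSU_42) to 2127 (without MSU_28). No paired analysis was possible because replicate numbers only follow accession order. Slide 6 alone holds both groups, so genes without it have no estimate that separates session from diet, and with as few as 2 LFD-HFD tumors measured for genes without slide 7, small differences are not detectable.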

Other observations

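Gm14411 lies in a cluster of predicted zinc finger genes on chromosome 2, and its neighbours were looked at after its value had been seen. Within 2.5 Mb on either side (mm9 174887050 to 179149782), 33 other genes or probes were tested. Of these, 25 differed by more than 0, the median difference was 0.309, and 15 (45.5%, beside 9.97% of all genes) were higher in LFD-HFD at an unadjusted p under 0.05, with differences from 0.377 to 1.34, while 2 were lower. The highest were Gm14325 (1.34), Gm14308 (1.13), Gm14391 (1.09) and Gm14418 (1.07), and none passed the adjusted threshold by itself (for Gm14391, the adjusted p was 0.0733). On slide 6, MSU_24 was above MSU_28 for 23 of 27 measured, by a median of 0.444. Probes of 3 of the neighbours share the capitals shown for Gm14411, and how far the others measure each other's transcripts was not tested. The list was formed after the values were seen, so no test was run on it.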
